A study of Arabidopsis thaliana with 28 samples.

Results

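CYP71A19 (AT4G13290) and its neighbour CYP71A20 (AT4G13310) are cytochrome P450 genes of Arabidopsis thaliana, 2 of the 23681 gene rows measured by RNA sequencing in whole seedlings. CYP71A19 was chosen by its measured read counts in these same 10 groups, so its values are given as a description with no test. CYP71A20 was taken for its position beside CYP71A19 and was tested. Both genes passed the filter on low values, a normalised read count of at least 10 in at least 2 libraries, as did 21023 genes in all. A normalised read count is the number of reads assigned to a gene divided by 1 size factor per library, and it is not divided by gene length.

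The wild-type accession Col-0 and the mutant aba2-1 were each kept for 3 h in liquid medium with a mock solution, 10 nM abscisic acid (ABA) or 50 nM ABA. ABA2 encodes a dehydrogenase of ABA biosynthesis, and aba2-1 plants hold little ABA. The CA lines, named for the receptors PYL4, PYL5, PYL6 and PYR1, received the mock solution. PYR1 and the PYL proteins bind ABA and then inhibit PP2C phosphatases; CA usually denotes a constitutively active receptor, one that needs no hormone. All samples are labelled T3, and the labels give neither the genetic background of the CA lines nor the promoter or number of insertions of their transgenes. Plants grew for 7 days on plates per the growth notes, while the age label says 10 days after germination. There were 2 libraries of mock-treated Col-0, 2 of Col-0 at 10 nM ABA, and 3 in each of the other 8 groups. Replicates are not said to be separate cultures, so p-values speak only of the spread between these libraries, and that spread may be technical.

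Libraries held between 11.99 and 30.94 M reads. Of the 28 libraries, 3 stood apart from their replicates: in aba2-1 10 nM ABA replicate 3, ribosomal RNA rows took 72.5% of reads against at most 9.72% elsewhere, and aba2-1 50 nM ABA replicate 2 and PYL5 CA replicate 2 were the libraries farthest from the others of their groups over all genes. The library aba2-1 50 nM ABA replicate 3, which is not counted among these 3, lay farther from its group than the PYL5 CA library did. For each line, the normalised counts of the receptor gene and of the row named for its CA form were summed. These sums were higher than in both mock groups in PYL4 CA, PYL5 CA and PYL6 CA. They were lower in the line labelled PYR1 CA, at 1022 ± 270 (SD, n = 3) against 3172 ± 356 (SD, n = 2) in Col-0 mock. The label states no transcript level, and the identity of the line was not tested. The root markers (17 genes) and the shoot photosynthesis markers (10 genes) were detected in full, as the whole-seedling label requires.

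Cytochrome P450 enzymes are haem proteins of the endoplasmic reticulum that insert oxygen into small molecules. In Arabidopsis, CYP71A12 and CYP71A13 act in the synthesis of the defence compound camalexin, and other family members oxidise terpenes. Terpene synthases make the carbon skeletons that such P450s can modify, and their genes often lie beside P450 genes in plant genomes. TPS12 and TPS13, which lie beside and between the 2 P450 genes, encode sesquiterpene synthases known from roots that make bisabolene from farnesyl diphosphate.

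On chromosome 4 of assembly TAIR10.1, CYP71A19 occupies bases 7740283 to 7743135 and CYP71A20 bases 7750305 to 7753210, both on the plus strand. TPS12 (AT4G13280) occupies bases 7733114 to 7736745 and TPS13 (AT4G13300) bases 7742871 to 7746394, both on the minus strand. The 4 genes span 20.1 kb, with 3.54 kb between TPS12 and CYP71A19. The exons of CYP71A19 and TPS13 overlap over 265 bases at their 3' ends, on opposite strands. The libraries came from a stranded kit, but whether strand was used in counting is not given in the sources used here. Reads in that overlap could be counted for either gene.

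**Figure D1:**
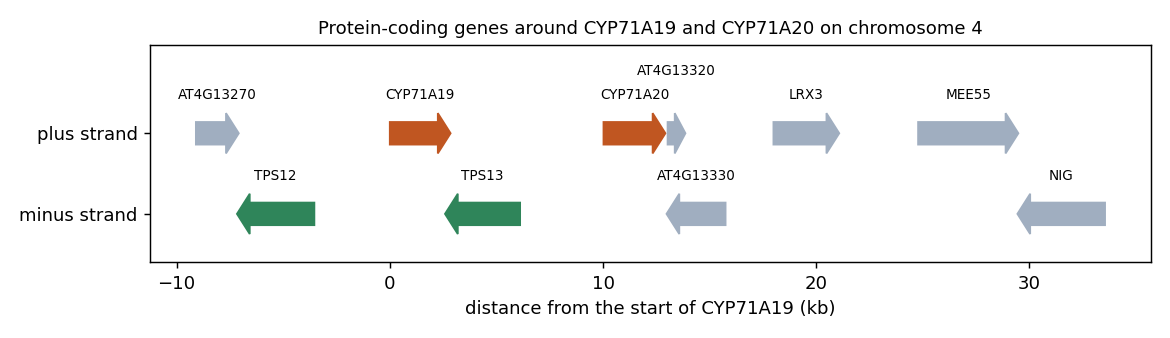
Protein-coding genes around CYP71A19 and CYP71A20 on chromosome 4, drawn to scale against the distance in kb from the start of CYP71A19. Arrows point in the direction of transcription; the 2 P450 genes are orange, TPS12 and TPS13 green and the other genes grey. TPS12 lies 3.54 kb before CYP71A19, and TPS13 overlaps its end.

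The coding sequences of the 2 P450 genes, of 1473 and 1494 bases, were identical at 1336 of 1497 aligned positions (89.2%). The ungapped stretch of 120 coding bases with the most differences is shown because such positions let a read be assigned to 1 of the 2 genes; capitals mark its 20 differing bases. It covers coding bases 413 to 532 of CYP71A19 and 410 to 529 of CYP71A20, 5′ to 3′.
CYP71A19: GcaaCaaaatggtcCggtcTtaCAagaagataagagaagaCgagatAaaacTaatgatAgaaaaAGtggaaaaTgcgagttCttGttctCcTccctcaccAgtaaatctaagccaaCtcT
CYP71A20: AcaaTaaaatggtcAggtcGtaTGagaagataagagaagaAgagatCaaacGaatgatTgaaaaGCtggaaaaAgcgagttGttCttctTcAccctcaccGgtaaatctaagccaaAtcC
The longest identical coding run was 128 bases. Each transcript was read along its own strand. Of all stretches of 31 bases, 5.29% of those in CYP71A19 and 6.21% of those in CYP71A20 also occurred in another gene, in each case the other of the pair. TPS12 and TPS13 shared more, 17.9% and 18.4% of theirs. Matches to the opposite strand were not counted, so these shares leave out the exon overlap of CYP71A19 and TPS13.

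The ABA-responsive element, bound by the bZIP factors of ABA signalling, has the core ACGTG, and the G-box CACGTG holds that core on both strands. Both strands of the 1000 bases before each annotated start were searched. The core occurred 4 times before CYP71A19 and 2 times before CYP71A20, and each gene had 1 G-box, which supplies 2 of those matches. These stretches are shown because they are the places where that element's letters lie near the 2 genes. Capitals mark the core or the G-box, and all stretches read along the plus strand, the strand of both genes, in TAIR10.1.
CYP71A19, chr4:7739399-7739443: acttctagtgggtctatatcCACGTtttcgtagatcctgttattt
CYP71A19, chr4:7739651-7739695: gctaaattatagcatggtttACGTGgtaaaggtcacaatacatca
CYP71A19, chr4:7739708-7739753: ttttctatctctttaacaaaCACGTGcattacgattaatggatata
CYP71A20, chr4:7749640-7749685: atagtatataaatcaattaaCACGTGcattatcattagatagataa
The G-boxes lay 555 and 645 bases before the starts of CYP71A19 and CYP71A20, within an identical run of 13 bases, aaCACGTGcatta. Such matches are common: of 27549 promoters of that length, 54.3% held the core and 14.7% a G-box. No core was found in the 1000 bases before TPS12 or TPS13, nor in the 250 bases before any of the 4 genes, where 22.8% of promoters held it. A match is a description of the letters and shows no binding.

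CYP71A19 was highest in aba2-1 at 50 nM ABA and lowest in mock-treated aba2-1. The normalised read count was 364 and 394 in the 2 Col-0 mock libraries, and 59.2, 72.4 and 70.3 in the 3 aba2-1 mock libraries. No aba2-1 mock library came near a Col-0 mock library. In this comparison 0.59% of all genes were called, in either direction. The means were 379 ± 21.2 (SD, n = 2) and 67.3 ± 7.12 (SD, n = 3), a log2 difference of -2.48 (SE 0.25) on the log2(value + 1) scale, or 5.58-fold lower in aba2-1.

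In Col-0, the CYP71A19 count was 445 and 564 at 10 nM ABA, and 581, 435 and 573 at 50 nM. All 5 treated Col-0 libraries lay above both Col-0 mock libraries, while the ranges at the 2 doses overlapped. Of all genes, 0.0285% were called at 10 nM against mock and 1.01% at 50 nM, in either direction. The means of 505 ± 84.3 (SD, n = 2) and 529 ± 82.2 (SD, n = 3) gave log2 differences from mock of 0.40 (SE 0.27) and 0.47 (SE 0.25). Between the doses the log2 difference was 0.07 (SE 0.25).

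In aba2-1, the CYP71A19 count was 308, 229 and 322 at 10 nM ABA, and 633, 981 and 481 at 50 nM. The libraries of the 3 aba2-1 groups did not overlap at any step, so that the order mock, 10 nM, 50 nM held for every library. Of all genes, 0.975% were called at 10 nM against mock, 24.8% at 50 nM against mock and 11.6% between the doses. The mean was 286 ± 50.3 (SD, n = 3) at 10 nM and 698 ± 256 (SD, n = 3) at 50 nM. On the log2(value + 1) scale, the difference from mock was 2.06 (SE 0.22) at 10 nM, or 4.17-fold. At 50 nM it was 3.30 (SE 0.22), or 9.83-fold. From 10 to 50 nM the log2 difference was 1.24 (SE 0.22). The count of 322 at 10 nM came from the library rich in ribosomal RNA and rests on 73 reads; without it the log2 difference at 10 nM was 1.97. The count of 981 at 50 nM came from a library that stood apart; without it the log2 difference from mock was 3.02 and that between the doses 0.96.

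The log2 response of CYP71A19 to ABA was thus larger in aba2-1 than in Col-0, by 1.66 (SE 0.35) at 10 nM and by 2.83 (SE 0.33) at 50 nM. Without aba2-1 50 nM ABA replicate 2 the latter was 2.55. These responses start from unequal mock levels. At 10 nM ABA, the aba2-1 libraries lay below both Col-0 libraries, with a log2 difference of -0.82 (SE 0.25), where 0.328% of all genes were called. At 50 nM the aba2-1 libraries overlapped with Col-0, with a log2 difference of 0.35 (SE 0.22) and 0.07 without aba2-1 50 nM ABA replicate 2.

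**Figure D2:**
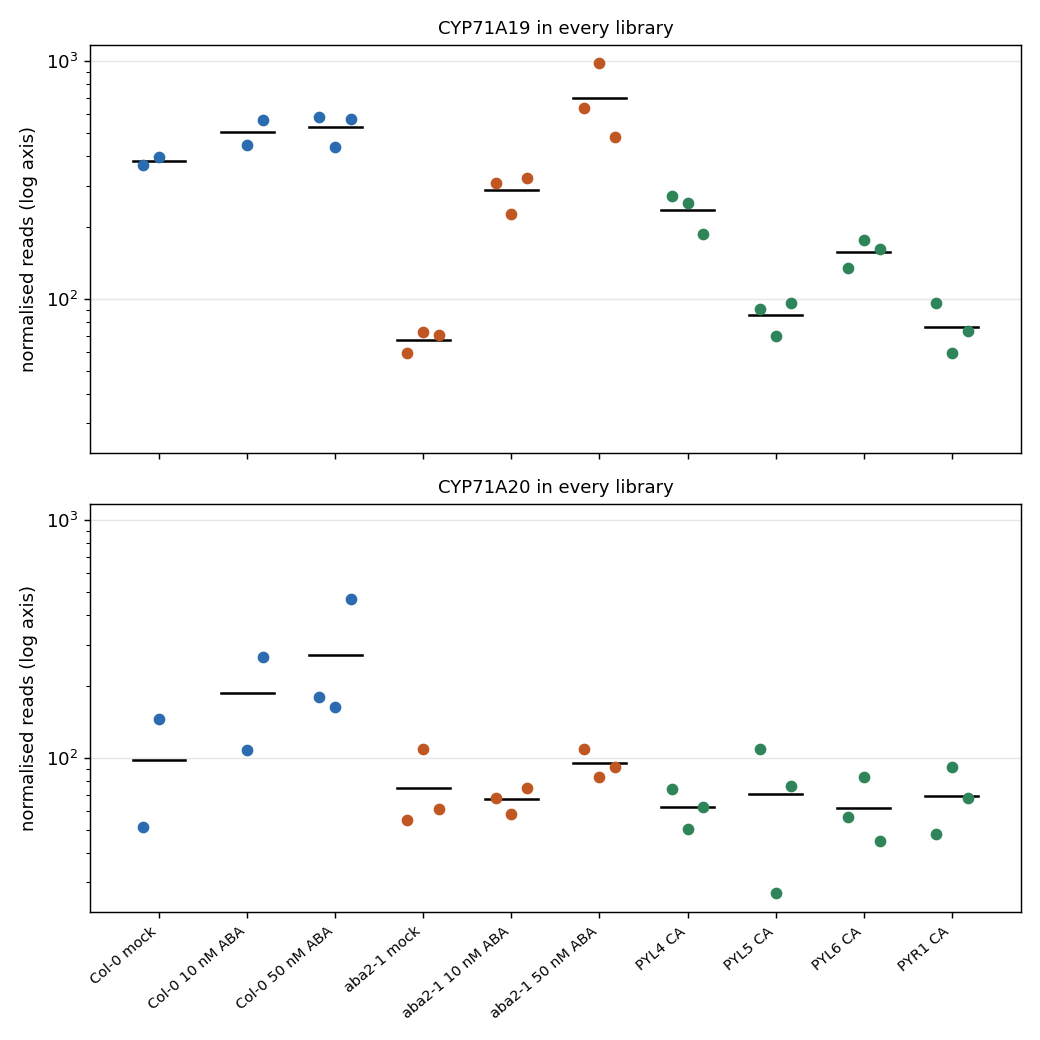
Normalised read counts of CYP71A19 (top) and CYP71A20 (bottom) in every library, on a log axis, by group; points are libraries and bars are group means. The 3 aba2-1 mock libraries lie between 59.2 and 72.4 for CYP71A19 and the 3 aba2-1 50 nM ABA libraries between 481 and 981, while CYP71A20 spans 55.0 to 109 in the same 6 libraries.

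CYP71A20 did not pass the test for a response to ABA in aba2-1, and its highest counts were in Col-0 with ABA. The normalised read count was 55.0, 109 and 61.3 in aba2-1 mock, 68.1, 58.1 and 75.0 at 10 nM ABA, and 109, 83.4 and 92.0 at 50 nM. The mock libraries overlapped with those of both doses. The log2 difference from mock was -0.10 (SE 0.47, 95% interval -1.07 to 0.87) at 10 nM and 0.39 (SE 0.47, 95% interval -0.57 to 1.36) at 50 nM. Neither passed the test, with adjusted p = 1 and adjusted p = 0.55 (limma, adjusted over 21023 genes), and a p that misses the threshold does not show equal levels.

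In Col-0, the CYP71A20 count was 51.2 and 145 in mock, 108 and 266 at 10 nM ABA, and 181, 164 and 467 at 50 nM. The libraries at 50 nM all lay above those of mock, while those at 10 nM overlapped with both. The log2 differences from mock of 0.97 (SE 0.57) and 1.47 (SE 0.52) did not pass the test, with adjusted p = 1 and adjusted p = 0.24 (limma), and 1.01% of all genes were called at 50 nM. The spread within groups was wide: the highest Col-0 50 nM ABA library was 2.84 times the lowest, against 1.34 times for CYP71A19. The response to 50 nM ABA in aba2-1 minus that in Col-0 was -1.07 (SE 0.70) on the log2 scale and did not pass (limma, adjusted p = 0.42), where 2.05% of all genes were called.

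The single call for CYP71A20, among 25 comparisons, was at 50 nM ABA between the genotypes. The mean was 94.9 ± 13.1 (SD, n = 3) in aba2-1 and 270.5 ± 170.1 (SD, n = 3) in Col-0, without overlap, at a log2 difference of -1.34 (SE 0.47; limma, adjusted p = 0.045). In that comparison 10.4% of all genes were called lower and 21.1% in either direction. The call was lost in each of the 6 fits that left out 1 of these libraries, with adjusted p between 0.052 and 0.20, and without the 3 libraries that stand apart, with adjusted p = 0.098 (limma). At 10 nM ABA the log2 difference between the genotypes was also -1.34 (SE 0.52), with no overlap, and did not pass (limma, adjusted p = 0.45), where 0.328% of all genes were called. In mock it was -0.27 (SE 0.52; limma, adjusted p = 1), against -2.48 for CYP71A19.

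The 2 genes thus stood in different proportions across groups. Per kb of exon, of which CYP71A19 has 2336 bases and CYP71A20 1999, the ratio of CYP71A19 to CYP71A20 ranged from 0.570 to 0.983 over the aba2-1 mock libraries. It ranged from 3.37 to 3.87 at 10 nM ABA and from 4.47 to 10.06 at 50 nM in aba2-1. In Col-0 the ratio went the other way with dose in the means, 4.20 ± 2.66 (SD, n = 2) in mock, 2.66 ± 1.20 (SD, n = 2) at 10 nM and 2.02 ± 0.876 (SD, n = 3) at 50 nM, but the libraries overlapped.

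Among the CA lines, CYP71A19 was highest in PYL4 CA and lowest in PYR1 CA. The normalised read count was 270.3, 253 and 187 in PYL4 CA, and 134, 177 and 162 in PYL6 CA. In PYL5 CA it was 90.7, 70.0 and 96.5, and in the line labelled PYR1 CA it was 96.3, 59.2 and 73.0. PYL4 CA lay above PYL6 CA without overlap, and PYL6 CA above the other two lines without overlap. The means were 237 ± 44.0 (SD, n = 3) in PYL4 CA, 158 ± 21.5 (SD, n = 3) in PYL6 CA, 85.7 ± 13.9 (SD, n = 3) in PYL5 CA and 76.2 ± 18.7 (SD, n = 3) in PYR1 CA.

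Because the background of the CA lines is not given, both mock groups were used as references, and the comparisons share those libraries. Against aba2-1 mock, the log2 difference of CYP71A19 was 1.79 (SE 0.22) in PYL4 CA and 1.21 (SE 0.22) in PYL6 CA, both without overlap, where 2.48% and 0.119% of all genes were called in either direction. It was 0.34 (SE 0.22) in PYL5 CA and 0.15 (SE 0.22) in PYR1 CA, both with libraries that overlapped with aba2-1 mock, where 0.157% and 1.15% of all genes were called. For PYL5 CA, 33 genes were called in all, and 4210 without the 3 libraries that stand apart. Against Col-0 mock all 4 lines were lower without overlap, by log2 differences of -0.69 in PYL4 CA, -1.27 in PYL6 CA, -2.14 in PYL5 CA and -2.33 in PYR1 CA (SE 0.25 each). Of all genes, 1.44%, 0.157%, 1.59% and 2.81% were called in these 4 comparisons. Between the lines, PYL4 CA exceeded PYR1 CA by 1.63, PYL5 CA by 1.45 and PYL6 CA by 0.57 (SE 0.22 each), where 0.205%, 1.34% and 2.71% of all genes were called. PYL6 CA exceeded PYR1 CA by 1.06 (SE 0.22), where 2.39% of all genes were called.

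Ordered by mean over all 10 groups, CYP71A19 fell from aba2-1 50 nM ABA through Col-0 50 nM, Col-0 10 nM and Col-0 mock to aba2-1 10 nM ABA, PYL4 CA, PYL6 CA, PYL5 CA, PYR1 CA and aba2-1 mock. Neighbours in this order did not overlap at 4 of the 9 steps: between Col-0 10 nM ABA and Col-0 mock, between Col-0 mock and aba2-1 10 nM ABA, between PYL4 CA and PYL6 CA, and between PYL6 CA and PYL5 CA. At the other 5 steps they overlapped.

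The CA lines were not told apart by CYP71A20. Its normalised read count was 74.0, 50.2 and 62.3 in PYL4 CA, 109, 27.0 and 76.3 in PYL5 CA, 56.6, 83.1 and 44.7 in PYL6 CA, and 47.8, 92.0 and 68.2 in PYR1 CA. Every pair of lines overlapped, and each line overlapped with both mock groups. Against aba2-1 mock the log2 differences lay between -0.26 and -0.10 (SE 0.47 each), and none passed the test (limma, adjusted p between 0.83 and 1). The 95% interval of PYL4 CA against aba2-1 mock was -1.19 to 0.75. The value of 27.0 came from PYL5 CA replicate 2; without it the log2 difference of that line from aba2-1 mock was 0.35, so its sign rests on this library.

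TPS12, the sesquiterpene synthase before CYP71A19, was lower in aba2-1 mock and rose with 50 nM ABA. Its normalised read count was 87.0 and 109 in Col-0 mock, and 22.8, 14.5 and 19.3 in aba2-1 mock, a log2 difference of -2.33 (SE 0.37; limma, adjusted p = 0.0013) where 0.281% of all genes were called lower. Leaving out Col-0 mock replicate 2 ended the call, at adjusted p = 0.063 (limma). In aba2-1 it was 43.2, 26.1 and 17.7 at 10 nM ABA and 72.5, 91.9 and 47.1 at 50 nM. The 50 nM libraries lay above all others of aba2-1, with a log2 difference of 1.82 from mock (SE 0.33; limma, adjusted p = 0.00048) where 12.7% of all genes were called higher. From 10 to 50 nM it rose by 1.29 (SE 0.33; limma, adjusted p = 0.019) where 6.08% of all genes were called higher, a call lost in 3 of the 6 fits that left out 1 library. At 10 nM the difference from mock of 0.52 (SE 0.33) did not pass (limma, adjusted p = 0.84), and the lowest of these libraries rests on 4 reads.

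In Col-0, TPS12 was 104 and 124 at 10 nM ABA and 125, 114 and 124 at 50 nM, with log2 differences from mock of 0.21 (SE 0.41) and 0.31 (SE 0.37) that did not pass (limma, adjusted p = 1 for both), although the 50 nM libraries lay above those of mock. The response to 50 nM ABA was larger in aba2-1 by 1.51 (SE 0.50) and did not pass the test (limma, adjusted p = 0.12), where 0.609% of all genes were called higher. At 10 nM, TPS12 was lower in aba2-1 than in Col-0 by a log2 difference of -2.02 (SE 0.37; limma, adjusted p = 0.017) where 0.219% of all genes were called lower, a call lost in 4 of the 5 fits that left out 1 library.

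In the CA lines, TPS12 was 52.4, 47.1 and 32.2 in PYL4 CA, 46.7, 31.7 and 44.7 in PYL6 CA, 12.2, 11.0 and 29.8 in PYL5 CA, and 10.6, 8.84 and 14.0 in PYR1 CA. PYL4 CA and PYL6 CA lay above the other two lines without overlap. TPS12 was higher in PYL4 CA than in PYR1 CA (log2 1.88, SE 0.33; limma, adjusted p = 0.0082) where 0.138% of all genes were called higher. It was higher in PYL6 CA than in PYR1 CA (log2 1.79, SE 0.33; limma, adjusted p = 0.0056) where 0.352% were called higher, and in PYL4 CA than in PYL5 CA (log2 1.38, SE 0.33; limma, adjusted p = 0.040) where 0.913% were. These calls were lost in 3, 2 and 4 of the 6 fits that left out 1 library. PYL5 CA and PYR1 CA were lower than Col-0 mock, with log2 differences of -2.54 (limma, adjusted p = 0.00077) and -3.04 (limma, adjusted p = 7.6e-05) where 0.576% and 0.704% of all genes were called lower; the PYL5 CA call was lost in a fit of only the groups compared, at adjusted p = 0.21 (limma). Against aba2-1 mock no line passed for TPS12, with adjusted p of 0.061 in PYL4 CA, 0.56 in PYL6 CA, 0.77 in PYL5 CA and 0.40 in PYR1 CA (limma). Other settings did call 2 of these: PYL4 CA passed in 4 of them, with adjusted p from 0.0044 to 0.038 (limma and DESeq2), and PYL6 CA with the spread weighted by group, at adjusted p = 0.040 (limma).

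TPS13, the other sesquiterpene synthase, went down with 50 nM ABA in aba2-1. Its normalised read count was 21.8 to 37.4 over the 3 aba2-1 mock libraries, 17.8 to 22.7 at 10 nM ABA and 8.36 to 8.53 at 50 nM. All 3 counts at 50 nM lay below 10, the level used in the filter, and rest on few reads, where precision is low. The log2 difference at 50 nM was -1.66 (SE 0.44; limma, adjusted p = 0.011) where 12.1% of all genes were called lower. In Col-0 it was 24.2 and 30.2 in mock and 33.7 to 102 at 50 nM, with a log2 difference of 0.91 (SE 0.50) that did not pass (limma, adjusted p = 0.65). At 50 nM the genotypes differed by -2.47 (SE 0.44; limma, adjusted p = 0.00063), and the responses by -2.57 (SE 0.67; limma, adjusted p = 0.044) where 1.44% of all genes were called lower. The latter call was lost in 8 of the 11 fits that left out 1 library. With the spread weighted by group, none of these 3 calls held, with adjusted p of 0.20 for the response in aba2-1, 0.075 for the genotypes and 0.15 for the difference of responses (limma). TPS13 overlaps the end of CYP71A19, and its counts were lower, and those of CYP71A19 higher, at 50 nM ABA than in mock in aba2-1. In Col-0 both log2 differences at 50 nM were positive, 0.47 for CYP71A19 and 0.91 for TPS13. A link with the overlap was not tested.

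**Figure D3:**
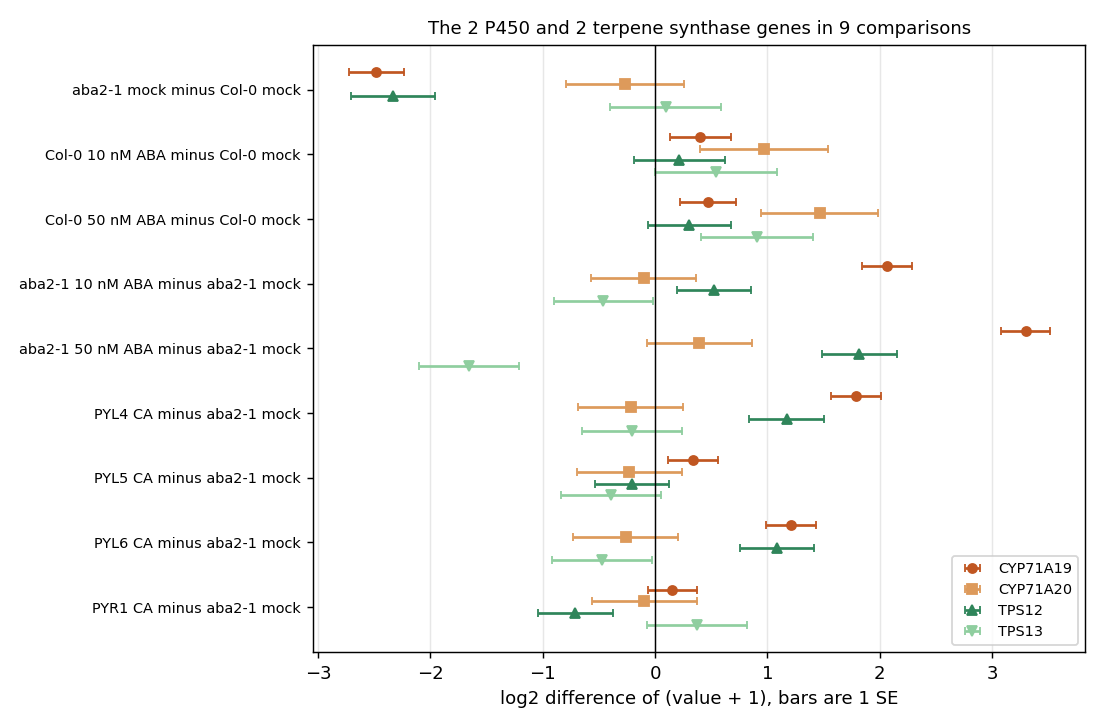
Fitted log2 differences of CYP71A19, CYP71A20, TPS12 and TPS13 in 9 comparisons, on the log2(value + 1) scale, with bars of 1 SE. CYP71A19 and TPS12 lie on the same side of 0 in each comparison except PYL5 CA and PYR1 CA against aba2-1 mock, while CYP71A20 lies between -0.27 and 0.39 outside Col-0 with ABA.

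Over the 10 group means of log2(value + 1), Pearson's r was 0.90 between CYP71A19 and TPS12, 0.65 between CYP71A19 and CYP71A20, and -0.15 between CYP71A19 and TPS13 (n = 10 groups, a description with no test). For CYP71A20 it was 0.75 with TPS12 and 0.48 with TPS13 over the same means. Group means share their normalisation, and CYP71A19 was chosen for its pattern over them. Within groups, over the deviations of the 28 libraries from their group means, r was 0.41 between CYP71A19 and TPS12, 0.26 between CYP71A19 and CYP71A20, and 0.67 between CYP71A20 and TPS13. CYP71A20 thus varied between replicates most closely with TPS13 among these pairs. Both TPS12 and CYP71A19 were low in aba2-1 mock, PYL5 CA and PYR1 CA. The ratio of CYP71A19 to TPS12 per kb of exon was 1.90 to 3.66 over the aba2-1 mock libraries. In 4 groups all libraries lay above that range: 5.23 to 13.4 in aba2-1 at 10 nM ABA, 6.40 to 7.82 in aba2-1 at 50 nM, 3.78 to 4.25 in PYL4 CA and 3.82 to 6.65 in PYR1 CA. The highest value, 13.4, came from the library rich in ribosomal RNA, which held 4 TPS12 reads.

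RAB18, a dehydrin gene used as a standard marker of ABA response, rose with ABA in both genotypes. RAB18 was 16.4 and 32.1 in Col-0 mock and 13.5, 18.1 and 17.0 in aba2-1 mock, ranges that overlap, where CYP71A19 was 5.58-fold lower in aba2-1. The log2 difference of RAB18 in mock was -0.49 (SE 0.28) and did not pass (limma, adjusted p = 0.77). In Col-0 RAB18 rose at 10 nM ABA by 3.51 (limma, adjusted p = 1.1e-06) and at 50 nM by 4.06 (limma, adjusted p = 9.2e-09), where CYP71A19 differed by 0.40 and 0.47. In aba2-1 it rose by 3.82 at 10 nM (limma, adjusted p = 3.1e-09), and from a mean of 16.2 in mock to 1121 at 50 nM (limma, adjusted p = 1.6e-13). Over the 10 group means r between RAB18 and CYP71A19 was 0.79 (n = 10 groups).

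**Figure D4:**
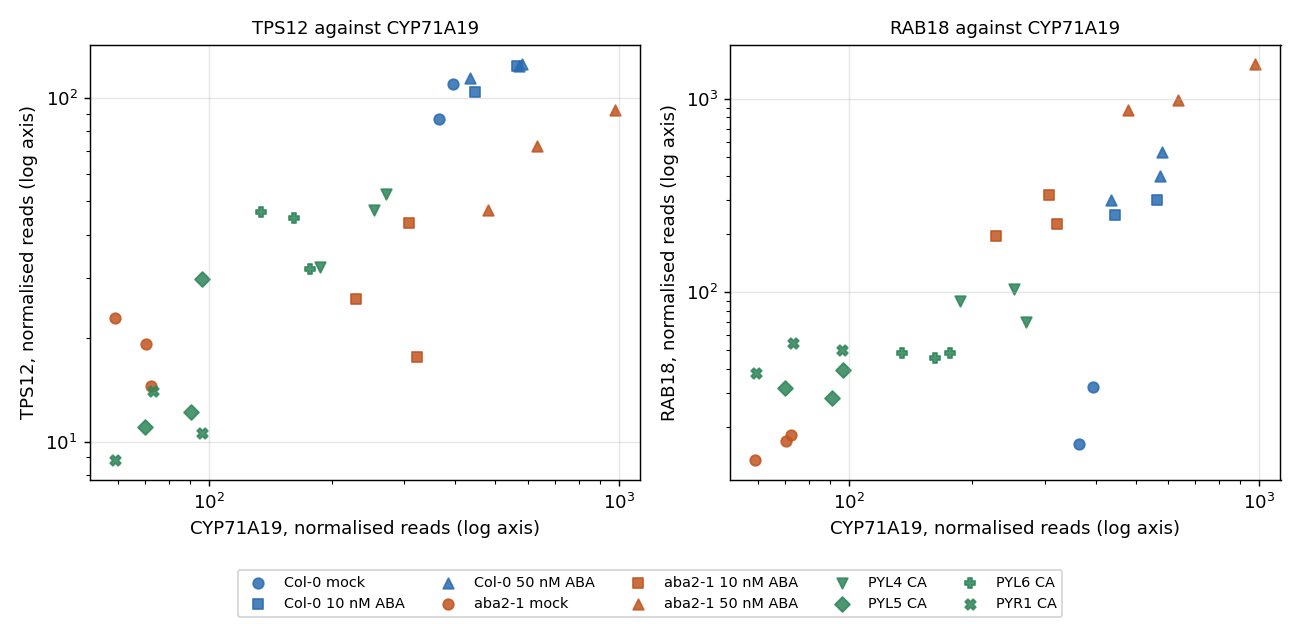
TPS12 (left) and RAB18 (right) against CYP71A19, as normalised read counts on log axes; each point is a library and symbols mark the groups. Col-0 mock holds CYP71A19 at 364 and 394 with RAB18 at 16.4 and 32.1, apart from the run of the other libraries, while in the TPS12 panel it lies with the other Col-0 libraries.

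Of the 16 ABA-induced markers, 1 was called higher and 1 lower in aba2-1 mock against Col-0 mock, where 0.309% and 0.281% of all genes were. The median log2 difference was -0.11 against -0.004 over all genes. MYB102 was the marker that rose, by 2.86 (limma, adjusted p = 0.007). KIN1, a cold- and ABA-induced gene, was the one that fell, by 2.40 (limma, adjusted p = 2.2e-05). All 16 rose at 50 nM ABA in aba2-1, with a median of 3.05, where 12.7% of all genes were called higher. In Col-0, 7 rose, with a median of 1.08, where 0.79% were. In the CA lines against aba2-1 mock, 8 of the 16 rose in PYL4 CA, 7 in PYR1 CA, 2 in PYL6 CA and 1 in PYL5 CA, where 1.97%, 1.04%, 0.0714% and 0.0951% of all genes were called higher. Their median log2 difference was 1.12 in PYL4 CA, 1.16 in PYR1 CA, 0.31 in PYL6 CA and 0.48 in PYL5 CA. Their summed normalised count was 6582 to 7744 in PYL5 CA and 6876 to 8354 in PYL4 CA, against 4300 to 5180 in aba2-1 mock. It was 7287 to 9084 over the PYR1 CA libraries and 5165 to 6768 in PYL6 CA, the reverse of the order of CYP71A19 in these 2 lines. RAB18 was called higher in both, at means of 47.4 in PYR1 CA (limma, adjusted p = 0.0073) and 47.3 in PYL6 CA (limma, adjusted p = 0.010).

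The CYP707A genes encode the P450s that break ABA down by 8'-hydroxylation. CYP707A1 rose in Col-0 at 50 nM ABA (log2 1.25; limma, adjusted p = 0.0016) and in aba2-1 at 10 nM (log2 0.93; limma, adjusted p = 0.0067) and 50 nM (log2 1.53; limma, adjusted p = 1.5e-06). Of all genes, 0.79%, 0.504% and 12.7% were called higher in these comparisons. In the CA lines CYP707A1 rose against aba2-1 mock in PYL4 CA by 1.46 (limma, adjusted p = 4.1e-05) and also in PYR1 CA (limma, adjusted p = 0.00013). There 1.97% and 1.04% of all genes were called higher. CYP707A2 rose in aba2-1 at 50 nM ABA by 2.95 (limma, adjusted p = 0.00015). In PYL4 CA against aba2-1 mock, 3 of the 4 CYP707A genes were called higher. CYP707A2 rose there by 2.01 (limma, adjusted p = 0.025) and CYP707A3 by 0.76 (limma, adjusted p = 0.021).

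Of the other CYP71A genes listed, 11 of 14 were measured and 8 passed the filter. At 50 nM ABA 1 of the 8 was called between the genotypes, where 21.1% of all genes were: CYP71A12, a camalexin enzyme, was at 8.90 ± 4.54 (SD, n = 3) in aba2-1 and 94.7 ± 60.6 (SD, n = 3) in Col-0, a log2 difference of -3.17 (limma, adjusted p = 0.0016). Against Col-0 mock, CYP71A27 was higher in PYL4 CA by 1.28 (limma, adjusted p = 0.038), where 1.22% of all genes were called higher, and CYP71A21 in PYR1 CA by 1.21 (limma, adjusted p = 0.029), where 2.11% were. The comparison with the most calls, of the 25 made, was PYL4 CA against PYL6 CA. In it 4 of the 8 were called, all higher in PYL4 CA, where 2.71% of all genes were called in either direction. Among them were CYP71A16 by 1.21 (limma, adjusted p = 0.021) and CYP71A12 by 2.46 (limma, adjusted p = 0.037). CYP71A21 was also lower in PYL6 CA than in PYR1 CA, by a log2 difference of -1.24 (limma, adjusted p = 0.015), where 2.39% of all genes were called in either direction. The median log2 difference of the 8 at 50 nM ABA in aba2-1 was -0.09, against 0.003 over all genes.

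Of 29 terpene synthase genes, 21 were measured and 15 passed the filter. At 50 nM ABA in aba2-1, 4 were called higher, TPS12 among them, and 3 lower, TPS13 among them, with a median of 0.25, where 12.7% of all genes were called higher and 12.1% lower. Of these 3, AT3G29110 had no reads in the 3 libraries at 50 nM and was at 11.9 ± 2.95 (SD, n = 3) in mock. The 2 copies of the cineole synthase gene TPS-CIN, AT3G25820 and AT3G25830, rose by 1.32 (limma, adjusted p = 0.00038) and 2.08 (limma, adjusted p = 0.00089), and the split of reads between these near-identical copies is uncertain. In aba2-1 mock against Col-0 mock TPS12 was the 1 call among the 15, where 0.59% of all genes were called in either direction.

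Farnesyl diphosphate, the substrate of sesquiterpene synthases, comes from the mevalonate pathway, of which all 11 listed genes passed the filter. At 50 nM ABA in aba2-1, 3 were called lower and 1 higher, with a median of -0.17, where 24.8% of all genes were called in either direction. MK, the mevalonate kinase gene, fell by 0.64 (limma, adjusted p = 0.019), and MVD1, a mevalonate diphosphate decarboxylase gene, rose by 0.35 (limma, adjusted p = 0.048). Of the 2 reductases that pass electrons to P450s, ATR2 fell by 0.38 (limma, adjusted p = 0.048). All these differences were smaller than that of TPS12.

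TPS12 and TPS13 are known as root genes, and fewer root cells and less RNA per root cell cannot be told apart in whole seedlings. Of the 17 root markers, 1 rose and 2 fell at 50 nM ABA in aba2-1, where 24.8% of all genes were called: CASP5, of the root endodermis, rose by 2.06 (limma, adjusted p = 0.00030), CASP4, of the same tissue, fell by 1.07 (limma, adjusted p = 0.011), and EIR1, a root auxin exporter, fell by 0.46 (limma, adjusted p = 0.014). Their median log2 difference was 0.02 there and 0.13 in aba2-1 mock against Col-0 mock. The summed root marker count was 4079 to 4189 in Col-0 mock, 4354 to 4759 in aba2-1 mock and 3886 to 6458 in aba2-1 50 nM ABA, and no marker was at 0 in all libraries. Of the 10 shoot photosynthesis markers, 3 fell at 50 nM ABA in aba2-1 with a median of -0.50, where 12.1% of all genes were called lower, and their sum was 404515 to 761086 against 672172 to 751635 in aba2-1 mock. The part of tissue proportions in the levels of the 4 cluster genes was not tested.

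A window of 5 annotated genes on either side of CYP71A19 and CYP71A20 held 10 protein-coding genes, the 4 described above among them, and 9 of the 10 were measured and tested. Of the others, AT4G13270 was called in aba2-1 at 50 nM ABA, at a log2 difference of 0.81 (limma, adjusted p = 0.032), with libraries that overlapped with mock, where 24.8% of all genes were called. At 50 nM ABA between the genotypes, AT4G13330 and NIG were called, at -0.70 (limma, adjusted p = 0.010) and 0.51 (limma, adjusted p = 0.022), where 21.1% of all genes were called. These differences were smaller than those of CYP71A19, TPS12 and TPS13 in the same comparisons, except that CYP71A19 differed by 0.35 between the genotypes at 50 nM.

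The genes whose group means were most like those of CYP71A19 were sought among 17127 tested genes with a mean count of at least 50. The 6 with the highest Pearson's r over the 10 group means were AT4G33550 (r = 0.98), AT1G35250, ESK1, ChlAKR, AT1G14730 and AT3G45680 (r = 0.96 to 0.97 for these 5). Ranked by Spearman's rho instead, 1 of these 6 was among the first 6. AT4G33550 encodes a protein of the lipid transfer protein superfamily and ESK1 a xylan acetyltransferase of the cell wall. AT4G33550 was at 67.4 ± 11.3 (SD, n = 2) in Col-0 mock, 8.38 ± 4.46 (SD, n = 3) in aba2-1 mock and 138 ± 12.5 (SD, n = 3) in aba2-1 50 nM ABA. In the CA lines it was at 50.0 ± 26.6 (SD, n = 3) in PYL4 CA and 8.09 ± 1.79 (SD, n = 3) in PYR1 CA. It was lower than CYP71A19 in every group and had a similar order of groups, with Spearman's rho of 0.99. ESK1 had a much narrower range, from 114 ± 11.2 (SD, n = 3) in PYR1 CA to 162 ± 31.2 (SD, n = 3) in aba2-1 50 nM ABA.

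For CYP71A20 the 4 most alike genes were AT3G46700, a UDP-glycosyltransferase gene, LAC11, a laccase gene of lignification, AT5G54170 and AT4G37190, with r from 0.93 to 0.95 (n = 10 groups); ranked by Spearman's rho, 1 of them was among the first 4. The likeness was one of small differences: over all 25 comparisons, the log2 differences of LAC11 stayed between -0.39 and 0.41, against -1.34 to 1.47 for CYP71A20. TPS12 ranked 56th for likeness to CYP71A19 among all other tested genes, RAB18 300th and CYP71A20 979th.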

How the data were processed

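The authors deposited 1 table with a column per library, whose values are a normalised signal: reads per gene divided by 1 size factor per library. This was read from the values, of which 100% were whole multiples of the library's step within 0.01 read. Per the submitters' processing notes, Salmon 1.3.0, Trimmomatic 0.38 and edgeR 3.28.0 were used with TAIR10; their order and roles are not given. The table has 23686 rows. The 5 without a locus identifier, at most 0.183% of a library's reads, were left out of the fits. Those named for the CA receptors entered the receptor sums. Library totals of 11.99 to 30.94 M reads set the precision, which is lowest for genes with few reads.

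Because the values are normalised, limma 3.58.1 in R 4.3.3 was used in place of a count test, on log2(value + 1) with trend and robust shrinkage. All 28 libraries entered 1 fit with a mean per group, after a filter of at least 10 in at least 2 libraries. Adjusted p-values are Benjamini-Hochberg values over 21023 genes within a comparison, called under 0.05. Fold changes of low genes are understated on this scale. Alternatives used edgeR 4.0.16 and DESeq2 1.42.0 on the recovered reads, other pseudocounts, TMM factors, a replicate block, group weights, fewer groups and fewer libraries. The fit was tested on simulated data. No replicate pair agreed within counting error, with a chi-square per degree of freedom of at least 5.35. Positions, promoters and coding sequences come from the NCBI RefSeq annotation of TAIR10.1.

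The members and the gene lists were chosen with earlier results of these data known. Genes named were the 2 members, TPS12, TPS13, called genes within 5 genes on either side, up to 3 called members per list and comparison, RAB18, the receptors and the genes most like each member.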

Additional observations from a re-analysis of the deposited data

Results flagged for a closer look

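The log2 response to 50 nM ABA differed between aba2-1 and Col-0 for TPS13, RAB18, CYP707A2 and KIN1, tested as an interaction in the limma fit over all genes, where 2.05% of genes were called. For TPS13 the response in aba2-1 minus that in Col-0 was -2.57 (SE 0.67, adjusted p = 0.044): all 3 aba2-1 libraries at 50 nM lay below their mock libraries and all 3 Col-0 libraries above theirs. For RAB18 the difference was 1.94 (SE 0.38, adjusted p = 0.0065), with higher counts in all treated libraries of both genotypes than in mock. For CYP707A2 it was 2.98 (SE 0.72, adjusted p = 0.030), and for KIN1 it was 2.71 (SE 0.36, adjusted p = 0.00021). AT4G33550, which was picked for its likeness to CYP71A19, had a difference of 3.21 (SE 0.62), given as a description with no test. RAB18 and KIN1 were among 8 of the 16 ABA-induced markers called higher in this interaction, where 0.609% of all genes were called higher. KIN1 was lower by 2.40 in aba2-1 mock than in Col-0 mock, so its responses start from unequal mock levels. It was not among the 10 markers called between the genotypes at 50 nM.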

How the results depend on the processing

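Log2 differences of the 4 cluster genes are given as lowest to highest over the fits that left out 1 library each. For CYP71A19 these ran from 3.02 to 3.54 for aba2-1 50 nM ABA against mock, 0.96 to 1.47 for 50 against 10 nM, 2.55 to 3.07 for the interaction at 50 nM and 0.071 to 0.58 for the genotypes at 50 nM; without the 3 libraries that stand apart, an alternative chosen after seeing the data, they were 3.02 against mock, 2.55 for the interaction and 0.071 for the genotypes. For CYP71A20 against Col-0 mock they ran from -1.01 to 0.48 in aba2-1 mock, -1.23 to 0.26 in PYL4 CA, -1.24 to 0.25 in PYL5 CA, -1.27 to 0.21 in PYL6 CA and -1.11 to 0.38 in PYR1 CA. Against aba2-1 mock they ran from -0.29 to 0.20 at 10 nM ABA, -0.40 to 0.080 in PYL4 CA, -0.64 to 0.35 in PYL5 CA, -0.50 to 0.035 in PYL6 CA and -0.32 to 0.20 in PYR1 CA. They ran from -0.15 to 1.14 for Col-0 50 against 10 nM and -1.61 to -0.86 for the genotypes at 50 nM. Between CA lines they ran from -0.56 to 0.42 (PYL4 to PYL5), -0.16 to 0.28 (PYL4 to PYL6), -0.36 to 0.10 (PYL4 to PYR1), -0.38 to 0.61 (PYL5 to PYL6), -0.55 to 0.44 (PYL5 to PYR1) and -0.41 to 0.059 (PYL6 to PYR1).

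For TPS12 they ran from -0.036 to 0.22 for Col-0 50 against 10 nM, -0.015 to 0.61 for the interaction at 10 nM, -0.084 to 0.29 for PYL4 CA against PYL6 CA and -0.64 to 0.044 for PYL5 CA against aba2-1 mock. For TPS13 they ran from -0.087 to 0.29 for aba2-1 mock against Col-0 mock, -0.37 to 0.27 for PYL4 CA and -0.78 to 0.16 for PYL5 CA against Col-0 mock, -0.14 to 0.88 for Col-0 50 against 10 nM, -0.46 to 0.17 for PYL4 CA and -0.88 to 0.067 for PYL5 CA against aba2-1 mock, -0.27 to 0.67 for PYL4 CA against PYL5 CA, -0.057 to 0.64 for PYL4 CA against PYL6 CA and -0.41 to 0.54 for PYL5 CA against PYL6 CA.

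Without the 3 libraries, CYP71A20 was 0.35 in PYL5 CA against aba2-1 mock, 0.078 against Col-0 mock, -0.56 for PYL4 CA against PYL5 CA, 0.44 for PYL5 CA against PYR1 CA and -1.25 for the genotypes at 50 nM. TPS12 was 0.044 in PYL5 CA against aba2-1 mock; TPS13 was 0.067 there, 0.16 against Col-0 mock and -0.27 for PYL4 CA against PYL5 CA. For CYP71A20, PYL4 CA against PYL5 CA was -0.0055 with a pseudocount of 5, -0.21 with edgeR and -0.19 with DESeq2, and PYL5 CA against PYR1 CA was 0.060 with edgeR and 0.039 with DESeq2. Replicate numbers did not pair the libraries as a set: same-numbered ones in different groups had a median r of 0.0025 over 117 pairs, from -0.59 to 0.25. For pairs with other numbers the median was -0.0035 over 235 pairs, from -0.30 to 0.52. A median near 0 does not show that no libraries shared a batch. With the replicate number as a block, CYP71A20 between the genotypes at 50 nM stayed at -1.34 and lost its call (adjusted p = 0.052), as it did at -1.34 with weighted spread (adjusted p = 0.42) and at -1.34 with only the groups compared (adjusted p = 0.16, limma in each); TPS13 in aba2-1 mock against Col-0 mock was -0.074 with the block. The cause was not tested. The number of genes called over the whole table moved more: 5210 for aba2-1 50 nM ABA against mock, 543 with only the groups compared and 5616 with DESeq2; 4429 for the genotypes at 50 nM, 255 and 5155 likewise; 431 for the interaction at 50 nM, 130 and 982 likewise; and 124 for aba2-1 mock against Col-0 mock, 842 with weighted spread. Without the 3 libraries, the count went from 33 to 4210 for PYL5 CA against aba2-1 mock, from 334 to 4282 against Col-0 mock and from 282 to 4483 for PYL4 CA against PYL5 CA.

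The TPS13 call for the interaction at 50 nM was also lost with a pseudocount of 5 (adjusted p = 0.051) and with only the groups compared (adjusted p = 0.082, limma). TPS12 lost 50 against 10 nM in aba2-1 with weighted spread (adjusted p = 0.20), only the groups compared (adjusted p = 0.41) and without the 3 libraries (adjusted p = 0.22), and PYL4 CA against PYL5 CA with weighted spread (adjusted p = 0.24) and only the groups compared (adjusted p = 0.27, limma in each). TPS12 gained calls in PYL4 CA and PYL6 CA against Col-0 mock (adjusted p from 0.0019 to 0.035), for the genotypes at 50 nM (0.026 to 0.038), for the interaction at 50 nM with DESeq2 (0.026) and for PYL5 CA against PYL6 CA with DESeq2 and without the 3 libraries (0.046 and 0.044).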
